A study of Glycine max with 36 samples.

Results

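Soybean carries several copies of GIGANTEA, and 3 of the 47011 gene identifiers in the deposited table were taken as these copies by their identifiers, with no threshold on their values. They are GLYMA10G36600, which is the maturity locus E2 (also called GIa), GLYMA20G30980 and GLYMA09G07240. Leaf RNA from the cultivar Williams 82 was sequenced in a circadian time course, and the series asks which transcripts keep cycling without a daily change of light. Seedlings grew for 9 days at 28 °C in cycles of 16 h of light and 8 h of darkness and were then kept in constant conditions, which the labels do not describe further. Unifoliolate leaves, the first simple leaves of the seedling, were taken from an age of 11 days at 12 time points, ZT0 to ZT44 in steps of 4 h (ZT, zeitgeber time in h). Each time point had 3 libraries, each made from a pool of 3 seedlings, so that errors below describe the spread between pools of plants of a single cultivar. No wild-type or mutant contrast at E2 was part of the design, and the groups are the times. Which allele this cultivar carries at E2 was not examined, so E2 below names the locus and not a functional allele.

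GIGANTEA is a large plant-specific protein whose transcript is under clock control and which acts both in the clock and in the measurement of day length. In Arabidopsis it stabilises the F-box protein ZEITLUPE and, together with FKF1 in blue light, removes the CDF repressors of the flowering gene CONSTANS. In soybean the functional E2 allele delays flowering and maturity, and loss of its function makes plants flower earlier.

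Values are FPKM, fragments scaled by the length of the gene and the mapped total, which can be compared between genes within a library. The summed FPKM per library ran from 651480 to 749530 and the relative depth from 0.794 to 1.14 times the median library, while the absolute depth is unknown. The 3 copies passed the filter on low values (a mean over all libraries of 1 FPKM or more) and were among the 27449 genes tested. The median gene itself moved by 0.47 (log2) between the time points where it was highest and lowest, so results were also computed after rescaling each library to its median gene. ZT40 replicate 2 and ZT44 replicates 2 and 3 stood apart from the other 33 libraries on the fourth principal component (3.33% of the variance), with scores of 34.0 to 39.3 against -24.8 to 17.5. Several tests and values that rest on these times are given with and without them. Periods, amplitude ranks, peak shifts of replicate courses and similarities between genes are given only with them.

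The E2 transcript, GLYMA10G36600, was low around subjective dawn and in the subjective night and high in the middle and late part of the subjective day. In the first 24 h its 3 libraries read 3.99, 5.45 and 5.56 FPKM at ZT0, 45.3, 41.7 and 34.4 FPKM at ZT4 and 80.2, 88.5 and 80.6 FPKM at ZT8. They then read 65.7, 59.6 and 57.5 FPKM at ZT12, 5.62, 4.86 and 4.81 FPKM at ZT16 and 3.29, 3.84 and 3.59 FPKM at ZT20. The level had thus passed its maximum and returned to the night level within 8 h of ZT8, and no library of ZT4, ZT8 or ZT12 overlapped any of ZT0, ZT16 or ZT20. In the second 24 h the values were 7.39, 7.69 and 7.84 FPKM at ZT24, 41.2, 37.3 and 34.4 FPKM at ZT28 and 78.8, 82.3 and 76.0 FPKM at ZT32. They were 71.9, 75.4 and 68.1 FPKM at ZT36, 19.9, 9.16 and 10.4 FPKM at ZT40 and 5.97, 3.33 and 3.34 FPKM at ZT44. The same rise and fall was thus seen again, with replicate 1 well above the other libraries at ZT40 and at ZT44. In the order of the means, ZT8 (83.1 ± 4.68 FPKM, SD, n = 3) and ZT32 (79.0 ± 3.18) overlapped in their libraries, as did ZT4 and ZT28, and ZT16, ZT0, ZT44 and ZT20 formed a chain of overlapping neighbours at the bottom, whereas ZT36, ZT12, ZT40 and ZT24 stood clear of their neighbours.

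GLYMA20G30980 followed a similar course at a lower level. Its libraries read 2.59, 2.40 and 2.62 FPKM at ZT0, 23.4, 20.2 and 19.3 FPKM at ZT4 and 64.6, 64.4 and 58.0 FPKM at ZT8. At ZT12 they read 43.3, 41.1 and 36.9 FPKM, at ZT16 4.82, 3.39 and 3.89 FPKM and at ZT20 2.21, 2.40 and 2.27 FPKM. ZT8 stood clear of every other time, and ZT0 and ZT20 overlapped at the bottom. On the next cycle the values were 3.96, 4.21 and 3.88 FPKM at ZT24, 20.5, 19.0 and 17.7 FPKM at ZT28 and 52.9, 54.3 and 43.7 FPKM at ZT32. They were 55.8, 57.2 and 45.7 FPKM at ZT36, 11.1, 4.54 and 8.89 FPKM at ZT40 and 3.45, 1.77 and 1.82 FPKM at ZT44. In the order of the means ZT12 stood clear, ZT4 overlapped ZT28, ZT40, ZT16 and ZT24 formed a chain of overlapping neighbours, and so did ZT0, ZT44 and ZT20. ZT32 and ZT36 overlapped, so no single highest time can be named in the second cycle, and replicate 3 was the lowest library at both.

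GLYMA09G07240 had a narrower and later peak and a much deeper minimum. Its libraries read 0.149, 0.224 and 0.426 FPKM at ZT0, 2.84, 2.35 and 2.18 FPKM at ZT4 and 30.7, 35.2 and 32.0 FPKM at ZT8. They read 67.4, 63.9 and 57.9 FPKM at ZT12, 7.0, 6.14 and 5.09 FPKM at ZT16 and 0.650, 0.795 and 0.665 FPKM at ZT20. All libraries of ZT12 lay above all those of ZT8, which was the reverse of the order seen in the other copies. In the second 24 h the values were 0.728, 0.819 and 0.686 FPKM at ZT24, 9.16, 7.96 and 8.16 FPKM at ZT28 and 28.2, 33.2 and 23.5 FPKM at ZT32. They were 60.9, 63.0 and 53.3 FPKM at ZT36, 21.6, 11.0 and 12.0 FPKM at ZT40 and 2.1, 0.921 and 1.01 FPKM at ZT44. ZT36 again stood above ZT32. In the order of the means ZT12 overlapped ZT36, ZT8 overlapped ZT32 and ZT24 overlapped ZT20, every other neighbour was clear of the next, and ZT0 lay below every other time. Once scaled to ZT0 replicate 1, the 12 lowest libraries of this copy lay within 0.12 of a whole multiple of 0.0124 FPKM. This step was chosen as the one that fitted these same 12 values best, so their fit to it is no independent support. The libraries of ZT0 corresponded to 12, 20 and 41 such steps. The spread at ZT0 therefore rests on few steps.

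**Figure D1:**
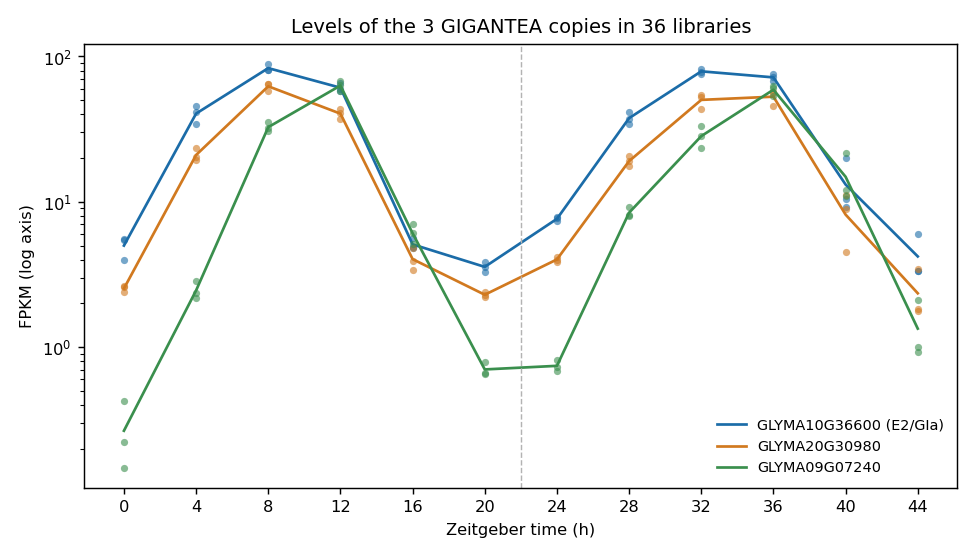
FPKM (log axis) of the 3 GIGANTEA copies against zeitgeber time in h, with 1 point per library, lines through the means of 3 libraries and a dashed line between the first and second 24 h. GLYMA10G36600 and GLYMA20G30980 peak near ZT8 and ZT32 to ZT36, while GLYMA09G07240 peaks at ZT12 and ZT36 and reaches 0.266 FPKM at ZT0.

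All 3 copies changed over the 12 time points, as did 95.1% of the genes tested. The adjusted p was 6.79e-22 for GLYMA10G36600, 1.34e-21 for GLYMA20G30980 and 4.68e-24 for GLYMA09G07240 (limma F-test on log2(FPKM + 1), Benjamini-Hochberg over 27449 genes), and the time means spanned 4.2, 4.28 and 5.66 on this log2 scale. Passing this test is common in these leaves, so the size of the change is the more informative measure. On the FPKM scale the highest mean of GLYMA10G36600 was 18.8 times the lowest in the second 24 h and 23.3 times in the first. For GLYMA20G30980 the factors were 22.5 in the second and 27.2 in the first 24 h. For GLYMA09G07240 they were 79.3 in the second and 237 in the first 24 h, the last of these resting on the low values at ZT0. Without the 3 libraries that stood apart, which leaves 1 library at ZT44, the factor in the second 24 h was 13.2 for GLYMA10G36600 and 15.3 for GLYMA20G30980, and that of GLYMA09G07240, whose lowest time was ZT24, stayed at 79.3. In whole leaves, fewer cells expressing a gene and less RNA per cell cannot be told apart.

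A curve with a period of 24 h was fitted to each copy, and all 3 passed its test, as did 94.4% of the genes tested. The amplitude, from the middle of the curve to its peak, was 2.28 ± 0.09 (log2, SE) for GLYMA10G36600 (adjusted p = 4.12e-22, limma), 2.29 ± 0.08 for GLYMA20G30980 (adjusted p = 5.92e-23, limma) and 2.75 ± 0.09 for GLYMA09G07240 (adjusted p = 1.24e-23, limma). The median amplitude of all genes was 0.36. By amplitude the copies ranked 105, 98 and 35 of 27449, and 110, 117 and 45 of 27330 after rescaling to the median gene. The E2 transcript and its relatives thus stood in the upper tail of the leaf transcriptome for size of the daily swing, although not for passing the test.

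**Figure D2:**
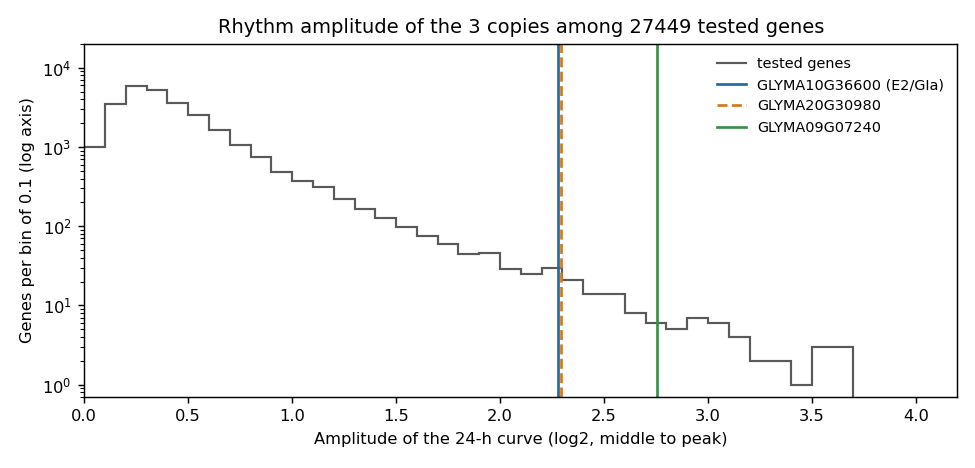
Number of tested genes (log axis) in bins of 0.1 of the amplitude of the 24-h curve (log2), with vertical lines at the 3 GIGANTEA copies. The lines stand at 2.28, 2.29 and 2.75, far to the right of the median of 0.36.

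Fitted peaks fell at ZT8.53 ± 0.15 h for GLYMA10G36600, ZT8.88 ± 0.14 h for GLYMA20G30980 and ZT10.7 ± 0.13 h for GLYMA09G07240 (SE). After rescaling to the median gene they fell at 8.07, 8.45 and 10.4 h, earlier in each copy and in the same order. When the 3 replicate numbers were fitted as separate courses, the peak times had SDs of 0.200, 0.185 and 0.176 h. Each course joins separate pools by a number that was not shown to link them, so these SDs do not describe plants followed over time. The period that best described the courses was 24.4 ± 0.231 h for GLYMA10G36600, 24.3 ± 0.379 h for GLYMA20G30980 and 23.9 ± 0.361 h for GLYMA09G07240 (SD, n = 3 courses), with no test, since 44 h hold less than 2 cycles.

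The rise came in steps that differed between the copies. From dawn, each copy rose at ZT4 over ZT0 (13.9% of all genes did) and again at ZT8 over ZT4 (28.2% of all genes). GLYMA10G36600 was 8.09 times higher at ZT4 than at ZT0 and then 2.05 times higher at ZT8 than at ZT4, so that the first of these steps was the larger in fold. GLYMA20G30980 was 8.29 times higher at ZT4 and then 2.97 times higher at ZT8. GLYMA09G07240 was 9.23 times higher at ZT4 and then 13.3 times higher at ZT8, so that in fold its larger step was the second. Adjusted p-values of these 6 contrasts lay between 4.83e-15 and 3.32e-05 (limma).

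Between ZT8 and ZT12 the copies parted. GLYMA09G07240 rose 1.93-fold at ZT12 over ZT8 (log2 difference 0.93 ± 0.17, SE, adjusted p = 5.17e-05, limma), as did 49% of all genes. GLYMA10G36600 (log2 difference -0.44 ± 0.17, adjusted p = 0.0322, limma) and GLYMA20G30980 (-0.61 ± 0.18, adjusted p = 0.00508, limma) fell, as did 8.26% of all genes. The fall of GLYMA10G36600 missed the threshold without any 1 of 5 libraries (ZT8 replicates 1, 2 and 3 and ZT12 replicates 2 and 3), with adjusted p between 0.0519 and 0.0916 (limma), and without replicate 2 (adjusted p = 0.178, limma) or replicate 3 (adjusted p = 0.159, limma), and was larger after rescaling to the median gene (-0.79, adjusted p = 0.000467, limma). It also missed the threshold with no filter on low values (adjusted p = 0.0536, limma), and the fall of GLYMA20G30980 missed it without replicate 3 (adjusted p = 0.0593, limma).

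All 3 copies then fell at ZT16 against ZT12, as did 10.4% of all genes, and the fall was steep in each. The mean at ZT16 was 12.0 times lower than at ZT12 for GLYMA10G36600, 10.0 times lower for GLYMA20G30980 and 10.4 times lower for GLYMA09G07240, with adjusted p-values of 4.51e-15, 5.35e-14 and 8.24e-15 (limma). At ZT20 against ZT16 all 3 fell further, as did 46.8% of all genes. The fall was 8.64-fold in GLYMA09G07240 (adjusted p = 6.12e-11, limma) but 1.43-fold in GLYMA10G36600 (adjusted p = 0.0431, limma) and 1.76-fold in GLYMA20G30980 (adjusted p = 0.00559, limma). After rescaling to the median gene the last 2 missed the threshold (adjusted p = 0.468 and 0.0697, limma), and that of GLYMA10G36600 missed it without any 1 of the 6 libraries concerned (adjusted p 0.0544 to 0.134, limma). That of GLYMA20G30980 missed it without replicate 1 or replicate 3 (adjusted p = 0.0550 and 0.0552, limma), so at this step only the fall of GLYMA09G07240 held under every setting tried.

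The next rise was called first in the copies with the earlier peak. At ZT24 against ZT20, GLYMA10G36600 rose 2.14-fold (adjusted p = 0.000323, limma) and GLYMA20G30980 1.75-fold (adjusted p = 0.0143, limma), against 4.21% of all genes that rose. GLYMA09G07240 had 0.745 ± 0.068 FPKM at ZT24 and 0.703 ± 0.080 FPKM at ZT20 (SD, n = 3 each), with a log2 difference of 0.03 (95% interval -0.32 to 0.39, adjusted p = 0.898, limma). Whether the copies differed in this step was not tested, and the call of GLYMA20G30980 was lost without replicate 1 (adjusted p = 0.0530, limma) and without replicate 3 (adjusted p = 0.109, limma). All 3 rose at ZT28 over ZT24 (15% of all genes) and at ZT32 over ZT28 (20.1% of all genes). At ZT36 over ZT32 only GLYMA09G07240 passed the test for a rise, of 2.09-fold (adjusted p = 1.50e-05, limma), as did 32.4% of all genes. GLYMA10G36600 differed there by -0.14 (log2, 95% interval -0.49 to 0.22) and GLYMA20G30980 by 0.07 (-0.29 to 0.44), a value that turned to -0.15 after rescaling to the median gene and to -0.02 without ZT32 replicate 3.

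In the second cycle the fall from the peak was called at both of its steps. At ZT40 against ZT36 the means were 5.46 times lower for GLYMA10G36600, 6.47 times lower for GLYMA20G30980 and 3.97 times lower for GLYMA09G07240, and all 3 passed the test, as did 7.67% of all genes. All 3 fell again at ZT44 against ZT40, as did 32.1% of all genes. Adjusted p-values of these 6 contrasts lay between 3.22e-13 and 3.19e-07 (limma). Without the 3 libraries that stood apart, 2 libraries were left at ZT40 and 1 at ZT44. The falls to ZT40 still passed and were then 4.74-fold, 5.30-fold and 3.52-fold in the same order of copies. Those from ZT40 to the single library of ZT44 were 2.54-fold, 2.89-fold and 8.01-fold, against 3.12-fold, 3.48-fold and 11.1-fold with all libraries.

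Within the same library the levels of the copies were compared directly. GLYMA10G36600 exceeded GLYMA20G30980 in 36 of 36 libraries, by 0.62 on the log2(FPKM + 1) scale (SD 0.23 over libraries). GLYMA10G36600 exceeded GLYMA09G07240 in 27 of 36 libraries, by 1.28 on average (SD 1.14), and GLYMA20G30980 exceeded GLYMA09G07240 in 24 of 36, by 0.66 (SD 1.01). The adjusted p was 1.5e-05, 1.5e-05 and 0.00048 (permutation test of 100000 sign flips over the 36 libraries, two-sided, adjusted over the 3 pairs). An unadjusted p of 1e-05, the smallest these resamples can give, underlies the first and second. The 3 libraries of a time share its time of day, and flipping the signs of the 12 time point means instead gave adjusted p-values of 0.00146, 0.00732 and 0.0474 (exact permutation test). GLYMA10G36600 and GLYMA20G30980 are closely related copies, and how reads that match more than 1 copy were counted is not given in the sources used here, so the size of their ratio is uncertain.

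The ratios between the copies themselves followed a daily course. The ratio of GLYMA10G36600 to GLYMA09G07240 was 21.4 ± 7.36 at ZT0, 16.5 ± 1.07 at ZT4, 2.55 ± 0.054 at ZT8, 0.967 ± 0.031 at ZT12, 0.847 ± 0.086 at ZT16 and 5.09 ± 0.284 at ZT20 (FPKM ratio, SD, n = 3 each). In the second 24 h it was 10.3 ± 1.03 at ZT24, 4.47 ± 0.232 at ZT28, 2.83 ± 0.375 at ZT32, 1.22 ± 0.050 at ZT36, 0.873 ± 0.046 at ZT40 and 3.26 ± 0.388 at ZT44. E2 was therefore the more abundant transcript except at ZT12, ZT16 and ZT40, when every library had more GLYMA09G07240. The ratio of GLYMA10G36600 to GLYMA20G30980 stayed between 1.28 ± 0.138 (ZT16) and 1.98 ± 0.385 (ZT0). Without the 3 libraries that stood apart, the ratio of GLYMA10G36600 to GLYMA09G07240 was 0.896 at ZT40 (2 libraries) and 2.85 at ZT44 (1 library).

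Each of these differences passed a test for a 24-h rhythm that shuffled libraries singly. The 3 libraries of a time share its time of day, so differences between times other than a 24-h rhythm can also lower its p. A version on the time point means was not run for the rhythm. The 24-h amplitude of the difference was 1.50 (log2) between GLYMA10G36600 and GLYMA09G07240 and 1.29 between GLYMA20G30980 and GLYMA09G07240, both with an adjusted p of 1.5e-05 in a permutation test (100000 shuffles of libraries within each 24 h, 3 pairs). Between GLYMA10G36600 and GLYMA20G30980 it was 0.21, with an adjusted p of 0.00013 in the same permutation test. The peak time of GLYMA10G36600 minus that of GLYMA09G07240 was -2.20 ± 0.036 h, GLYMA10G36600 minus GLYMA20G30980 gave -0.357 ± 0.089 h, and GLYMA20G30980 minus GLYMA09G07240 gave -1.84 ± 0.107 h (SD over 3 courses, no test), a negative value meaning that the first peaked earlier. These intervals are shorter than the sampling step of 4 h and come from the fitted curves. Their SDs rest on courses that join separate pools by replicate number.

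**Figure D3:**
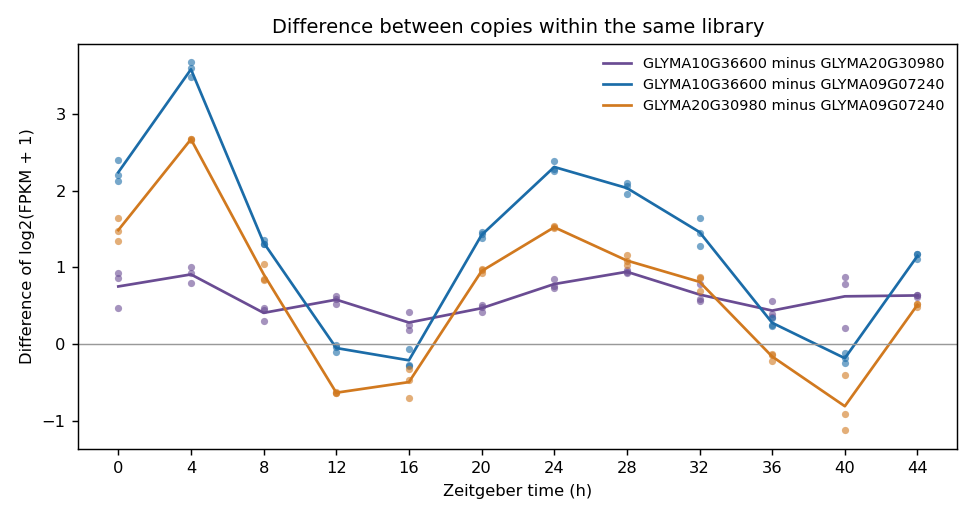
Difference in log2(FPKM + 1) between 2 copies of the same library against zeitgeber time in h, with 1 point per library and lines through the means of 3. The differences from GLYMA09G07240 swing from 3.58 and 2.67 at ZT4 to below 0 at ZT12, ZT16 and ZT40 (for GLYMA20G30980 also at ZT36), while GLYMA10G36600 stays above GLYMA20G30980 throughout.

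The make-up of the GIGANTEA transcript pool changed accordingly. Summed over the copies, the level was highest at ZT36 in the second 24 h (184 ± 14.8 FPKM) and at ZT8 in the first (178 ± 9.06 FPKM), and lowest at ZT20 (6.57 ± 0.444 FPKM, SD, n = 3 each). The libraries of ZT36, ZT8, ZT12 and ZT32 formed a chain of overlapping neighbours at the top, and those of ZT44, ZT0 and ZT20 did so at the bottom, so that no single highest or lowest time stands apart. Without the 3 libraries that stood apart the sum was 41.9 FPKM at ZT40 (2 libraries) and 11.5 FPKM at ZT44 (1 library). The remaining library of ZT44 lay above every library of ZT0 and ZT20. GLYMA10G36600 made up 63.8 ± 4.14% of the sum at ZT0 and 33.6 ± 1.34% at ZT16. GLYMA09G07240 made up 3.31 ± 1.45% at ZT0, 39.9 ± 2.90% at ZT16 and 41.3 ± 3.18% at ZT40. GLYMA20G30980 held between 22.6 ± 5.18% (ZT40) and 35 ± 1.56% (ZT8) at every time. Without ZT40 replicate 2, which stood apart, GLYMA09G07240 made up 39.7% and GLYMA20G30980 24.7% at ZT40 (2 libraries), the second of these close to the 24.6 ± 0.364% of ZT12.

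**Figure D4:**
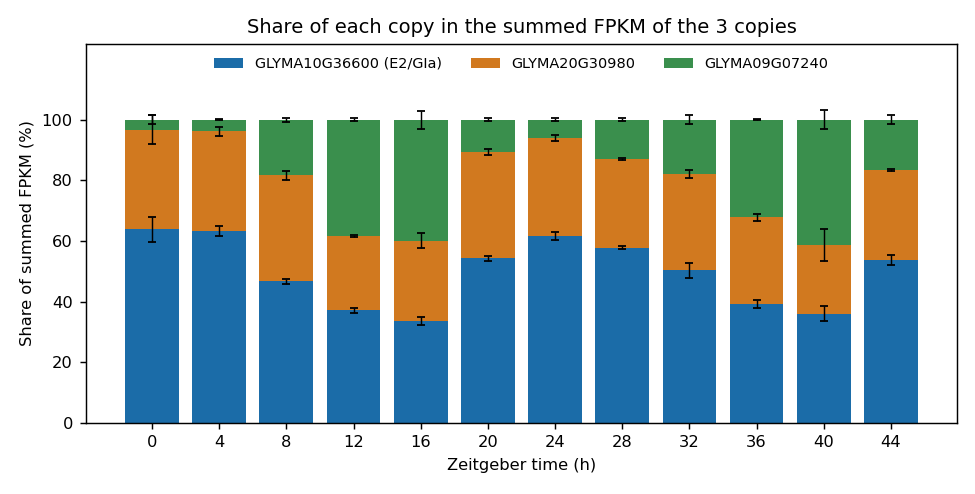
Share in percent of each GIGANTEA copy in the summed FPKM of the 3 copies at each zeitgeber time in h (bars, mean of 3 libraries; error bars, SD). The share of GLYMA09G07240 grows from 3.31% at ZT0 to 39.9% at ZT16 and from 6.0% at ZT24 to 41.3% at ZT40.

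The second and first 24 h were then compared at matched times of day. Time in constant conditions, the age of the seedlings and the pools sampled all differ between them and cannot be told apart. Averaged over the day, GLYMA10G36600 was higher in the second than in the first 24 h by 0.32 ± 0.10 (log2, SE, adjusted p = 0.00854, limma) and GLYMA09G07240 by 0.53 ± 0.12 (adjusted p = 0.000574, limma). A rise in level passed in 29.8% of all genes, so a rise of this kind was common in these leaves. GLYMA20G30980 differed by 0.20 (95% interval 0.01 to 0.40), which missed the threshold (adjusted p = 0.0758, limma). The call for GLYMA10G36600 was lost without replicate 1 (0.22, adjusted p = 0.0578, limma). Without the 3 libraries that stood apart, GLYMA20G30980 passed as well (0.29, adjusted p = 0.0108, limma).

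The matched times of day were then tested singly, without a test of differences between them. At ZT40 against ZT16, when both peaks were over, all 3 copies were higher in the second cycle, as were 14.9% of all genes. The means were 13.2 ± 5.85 FPKM at ZT40 and 5.10 ± 0.452 FPKM at ZT16 for GLYMA10G36600, a log2 difference of 1.14 (adjusted p = 1.86e-05, limma). They were 8.17 ± 3.33 FPKM at ZT40 and 4.04 ± 0.723 FPKM at ZT16 for GLYMA20G30980, a difference of 0.80 (adjusted p = 0.00130, limma). They were 14.9 ± 5.83 FPKM at ZT40 and 6.08 ± 0.957 FPKM at ZT16 for GLYMA09G07240, a difference of 1.11 (adjusted p = 1.97e-05, limma). The libraries of the 2 times did not overlap for GLYMA10G36600 or GLYMA09G07240 but did for GLYMA20G30980, whose ZT40 replicate 2 (4.54 FPKM) lay below ZT16 replicate 1 (4.82 FPKM). Without the 3 libraries that stood apart the differences were larger, at 1.34, 1.13 and 1.28. Replicate 1 was the highest library at ZT40 in each copy. With 1 library left out at a time the differences fell as low as 0.824, 0.565 and 0.831, and each still passed (limma). The call of GLYMA20G30980 was lost without replicate 3 (adjusted p = 0.0574, limma).

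At ZT28 against ZT4 only GLYMA09G07240 was higher, with 8.42 ± 0.642 FPKM at ZT28 and 2.46 ± 0.343 FPKM at ZT4 (3.43-fold on the FPKM scale, log2 difference 1.45 ± 0.17, adjusted p = 1.49e-06, limma), against 9.19% of all genes that rose. GLYMA10G36600 had 37.6 ± 3.42 FPKM at ZT28 and 40.5 ± 5.55 FPKM at ZT4 (log2 difference -0.10, 95% interval -0.45 to 0.26) and GLYMA20G30980 had 19.1 ± 1.42 FPKM at ZT28 and 21.0 ± 2.16 FPKM at ZT4 (-0.13, -0.50 to 0.24). The ratio of GLYMA10G36600 to GLYMA09G07240 was accordingly 4.47 at ZT28 and 16.5 at ZT4, and that of GLYMA20G30980 to GLYMA09G07240 was 2.27 at ZT28 and 8.57 at ZT4. On the log2(FPKM + 1) scale, which understates the change of these FPKM ratios, the difference between the copies changed by -1.55 and -1.58, with no overlap between the 3 libraries of each time. An exact permutation test gave p = 0.1 for either ratio, the smallest p that 3 libraries against 3 allow, and this ratio was chosen after its values had been seen. On the same scale the difference between GLYMA10G36600 and GLYMA20G30980 changed by 0.03 (p = 0.7, same exact permutation test).

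At ZT24 against ZT0, GLYMA10G36600 was higher, with 7.64 ± 0.228 FPKM at ZT24 and 5.0 ± 0.876 FPKM at ZT0 (adjusted p = 0.0345, limma), against 8.33% of all genes that rose. Its call was lost without any 1 of ZT0 replicate 1 and ZT24 replicates 1, 2 and 3 (adjusted p 0.0659 to 0.205, limma). The call was also lost with no filter on low values (adjusted p = 0.0537, limma), without replicate 2 (adjusted p = 0.146, limma) and without replicate 3 (adjusted p = 0.130, limma). GLYMA20G30980 (0.51, adjusted p = 0.0541, limma) and GLYMA09G07240 (0.47, adjusted p = 0.0630, limma) missed the threshold, and both passed after rescaling to the median gene (adjusted p = 0.0234 and 0.0283, limma). After quantile normalization GLYMA20G30980 passed (adjusted p = 0.0246, limma) but GLYMA09G07240 did not. For GLYMA09G07240 the pseudocount matters here: with 0.745 FPKM at ZT24 and 0.266 FPKM at ZT0 it was 2.80-fold higher on the FPKM scale, and with a pseudocount of 0.1 the log2 difference was 1.27 (adjusted p = 0.000424, limma). No copy passed (0 of 3, limma) at ZT32 against ZT8, where 11.1% of all genes were higher and 6.6% lower, at ZT36 against ZT12 (9.94% higher, 14.1% lower) or at ZT44 against ZT20 (24.3% higher, 9.22% lower). GLYMA20G30980 was higher at ZT36 after rescaling to the median gene (0.44, adjusted p = 0.0439, limma), after quantile normalization (adjusted p = 0.0497, limma) and without the 3 libraries that stood apart (adjusted p = 0.00807, limma). It was lower at ZT32 (-0.31, adjusted p = 0.0336, limma) without those libraries. At an unadjusted p under 0.05 the counts were 0 of 3, then 1 (GLYMA20G30980, log2 difference 0.38) and then 1, GLYMA09G07240 with 1.34 ± 0.655 FPKM at ZT44 and 0.703 ± 0.080 FPKM at ZT20. Shares of all genes were computed only at the adjusted threshold, with all libraries and the main settings. The unadjusted counts and the calls under other settings therefore have no share to be set against. Without the 3 libraries that stood apart, ZT44 is replicate 1 alone. Its differences from ZT20 were then 0.61 for GLYMA10G36600, 0.43 for GLYMA20G30980 and 0.86 for GLYMA09G07240 (log2).

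The shape of the rhythm itself was not called different between the cycles for any copy (0 of 3, limma interaction test, 15.4% of all genes called). The amplitude was 2.14 in the second and 2.43 in the first 24 h for GLYMA10G36600, 2.19 in the second and 2.40 in the first for GLYMA20G30980, and 2.58 in the second and 2.93 in the first for GLYMA09G07240 (log2). The interaction test, which takes amplitude and peak time together, gave adjusted p = 0.142, 0.216 and 0.311 in the same order (limma). At an unadjusted p under 0.05 the count was 1 of 3, GLYMA10G36600. No share of all genes was computed at that threshold, or for the calls below under other settings. Fitted to each replicate course, the peak of GLYMA10G36600 came 0.546 ± 0.216 h later in the second cycle and that of GLYMA20G30980 0.499 ± 0.317 h later, while that of GLYMA09G07240 moved by -0.037 ± 0.310 h (SD, n = 3, no test). Without the 3 libraries that stood apart the interaction passed for GLYMA10G36600 (adjusted p = 0.0458, limma) and GLYMA20G30980 (adjusted p = 0.0229, limma), and with a pseudocount of 0.1 it passed for GLYMA09G07240 (adjusted p = 0.0358, limma).

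**Figure D5:**
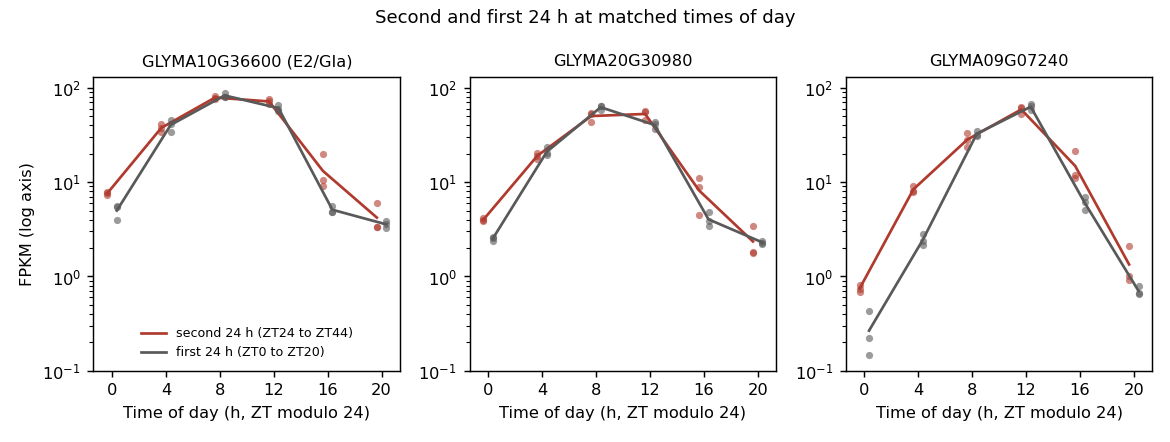
FPKM (log axis) of each GIGANTEA copy against time of day in h, with the second 24 h in red and the first 24 h in grey, 1 point per library and lines through the means of 3. In all 3 panels the red points at 16 h lie mostly above the grey ones, and at 4 h the cycles part for GLYMA09G07240 alone (8.42 against 2.46 FPKM).

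Genes with the most similar daily course were named by Pearson's r between time point means of log2(FPKM + 1) over the 12 times, among the 9404 genes averaging 10 FPKM or more, with the 3 copies themselves left out. The values describe these time points, which share their libraries, and carry no p. Outside the copies, nearest to GLYMA10G36600 were GLYMA17G15420 (r = 0.989) and GLYMA11G13070 (0.988), and most opposed were GLYMA03G24050 (-0.986) and GLYMA01G03720 (-0.983). Likewise outside the copies, GLYMA11G13070 was nearest to GLYMA20G30980 (0.992), followed by GLYMA06G14150 (0.986), with GLYMA07G02370 (-0.989) and GLYMA11G31620 (-0.988) most opposed. Nearest to GLYMA09G07240 were GLYMA09G07650 and GLYMA20G01830 (both 0.994), and most opposed were GLYMA18G32900 (-0.986) and GLYMA07G08150 (-0.985). The opposed genes of GLYMA10G36600 and GLYMA20G30980 had their highest time mean at ZT20 and those of GLYMA09G07240 at ZT0, the times at which these copies were lowest. Choosing genes by the lowest r over these same times makes such a match likely, so it is no separate result. After rescaling to the median gene the r of the opposed genes lay between -0.937 and -0.885.

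An r of 0.95 or more was reached by 52 genes (0.553%) with GLYMA10G36600, 63 (0.670%) with GLYMA20G30980 and 122 (1.30%) with GLYMA09G07240. After rescaling to the median gene the numbers were 94, 99 and 64, so the order of the copies by this count depends on the scaling. Between the copies, r was 0.993 for GLYMA10G36600 and GLYMA20G30980, above that of any of the 9404 genes compared with either. It was 0.828 for GLYMA10G36600 and GLYMA09G07240 and 0.871 for GLYMA20G30980 and GLYMA09G07240.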

How the data were processed

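Leaf RNA of 36 libraries (12 time points, 3 each) was analysed from 1 table of FPKM values that the authors deposited. Per the submitters' processing notes the tools included HTSeq 0.6.0 and TopHat2 2.1.0, with no role stated. Not given in the sources used here: genome build, annotation, and what program made the FPKM. FPKM are shares of a library, so abundant transcripts can shift all others, and absolute depth is unknown. Each column was tied to 1 sample by its title.

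Tests used limma 3.58.1 in R 4.3.3 on log2(FPKM + 1), with a prior variance that follows the mean, for genes averaging 1 FPKM or more, and Benjamini-Hochberg adjustment at 0.05 over all 27449 genes. Fold changes on this scale understate those of low genes. The fits were time as a factor, a 24-h cosine and sine with a term for the day (ZT0 to ZT20 and ZT24 to ZT44), and their interaction with the day. Differences between copies used permutation tests in numpy 2.4.6. Periods came from a grid of 18 to 32 h in steps of 0.1 h. Alternatives were a pseudocount of 0.1, no filter and a filter of 5 FPKM, rescaling, quantile normalization, no trend, a replicate block, other periods, 2 harmonics, and leaving out replicates or libraries. The fits were checked on simulated data. The members and lists were chosen with earlier results of these data known, and the comparison of copy ratios between ZT28 and ZT4 was added after seeing the data.

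Besides the members, identifiers were named by the 2 highest and 2 lowest correlations with each member among genes averaging 10 FPKM or more. None of the 47011 identifiers (0) matched the reference table of 59048 genes, so a planned list of clock and photoperiod genes, gene positions, promoters and proteins were not used here.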

Additional observations from a re-analysis of the deposited data

How the results depend on the processing

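The change over time and the 24-h rhythm passed under every alternative run. Their values are a span and an amplitude, which have no sign, so they could not change direction. The tested differences in level and in rhythm between copies passed under those run for them (a pseudocount of 0.1, the replicate block, replicates or libraries left out, and for the level sign flips of the time point means). The differences in level also kept their sign, while those in rhythm are amplitudes and have none. Rescaling, quantile normalization and filters were not run for the copies. The rhythm amplitude ranged from 2.11 to 2.43 for GLYMA10G36600, 2.12 to 2.53 for GLYMA20G30980 and 2.58 to 3.44 for GLYMA09G07240. Peak times were not kept for the other periods, and under the remaining alternatives they moved by less than 0.5 h (8.07 to 8.9 h, 8.45 to 9.2 h and 10.4 to 10.95 h). Rescaling, quantile normalization and 2 harmonics moved the peak of each copy by more than its SD over the replicate courses. The difference in level between the second and first 24 h ranged, when replicates or single libraries were left out, from 0.218 to 0.380 for GLYMA10G36600 and from 0.15 to 0.241 for GLYMA20G30980. It was 0.294 for GLYMA20G30980 without the 3 libraries that stood apart. Without these libraries the amplitude difference was -0.435 for GLYMA10G36600 and -0.356 for GLYMA20G30980, and at a pseudocount of 0.1 that of GLYMA09G07240 was -0.710. The interaction test takes amplitude and peak time together, so these amplitude differences were not tested by themselves. The sign of GLYMA20G30980 at ZT36 minus ZT32 turned under rescaling (-0.149) and quantile normalization (-0.0906), and leaving out replicates or libraries gave -0.0245 to 0.171. At ZT44 minus ZT20 such omissions gave -0.120 to 0.310 for GLYMA10G36600 and -0.254 to 0.129 for GLYMA20G30980, with 0.435 for GLYMA20G30980 without the 3 libraries. The cause of these changes was not tested. Replicate numbers were not shown to pair the libraries: of 198 same-numbered pairs of time points, 42 had deviations correlated above 0.1 (median 0.006). With the replicate block, the level difference of GLYMA10G36600 had an adjusted p of 0.00874 and the rhythms had 4.48e-21, 4.57e-22 and 1.51e-22 (limma). The block brought 3 further contrasts past the threshold, ZT24 minus ZT0 for GLYMA20G30980 (adjusted p = 0.0309, limma) and GLYMA09G07240 (adjusted p = 0.0423, limma) and ZT44 minus ZT20 for GLYMA09G07240 (adjusted p = 0.0377, limma). Absolute depth is unknown, so no counting interval is given for the low values of GLYMA09G07240.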
